A study of Mus musculus with 10 samples.

Results

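Interferon-stimulated genes are switched on in cells that sense an interferon. Here they are 39 genes of the deposited mouse lung table, chosen as well-known targets and found by gene symbol, out of 24394 symbols in all. They comprise 27 targets of type I interferon, 11 GTPases known for their induction by interferon-gamma, and Irf1, which belongs to both responses. All 39 were present, in 56 transcript rows, and the rows of a symbol were summed.

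Lung RNA of female BALB/c mice, young adults when bought, was sequenced for 3 groups. The Saline group (n = 3) was the control and was injected with saline only. OVA mice (n = 3) were sensitized by injection of ovalbumin, an egg protein, with an aluminium adjuvant and then challenged with it through the nose, which provokes an allergic airway inflammation used as a model of asthma. Herb mice (n = 4) went through the same ovalbumin protocol and were given an ethanol extract of Descurainia sophia seeds by mouth each day, beginning before the challenge and lasting through it. The labels list each library as a separate sample without naming the mouse, so the p-values measure only the spread between these samples. The tissue is whole lung, in which fewer cells of a type and less RNA per cell cannot be told apart.

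Type I interferons (the interferon-alphas and interferon-beta) signal through Ifnar1 and Ifnar2, and the kinases Jak1 and Tyk2, to a complex that holds STAT2 and IRF9 and binds a DNA motif called the interferon-stimulated response element (ISRE). Interferon-gamma, made mainly by T cells and NK cells, signals through Ifngr1 and Ifngr2, and the kinases Jak1 and Jak2, and acts through a motif called the gamma-activated site (GAS). Many targets respond to both. In the lung the type I programme is known for restricting respiratory viruses, and the interferon-gamma GTPases are known for attacking the vacuoles of intracellular bacteria and parasites.

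Stretches upstream of the transcription start are printed for 10 members, to show where the 2 motifs lie. They belong to members that the later comparisons turn on or to their closest relatives. They were taken from RefSeq on GRCm38.p6, the assembly that mm10 represents, are written 5′ to 3′ on the strand of the gene, and lie before the start of transcription. Capitals mark matches to the ISRE core GAAANNGAAA or to the GAS core TTCNNNGAA, both searched on both strands, and overlapping matches run together. The type I targets are an antiviral RNA-sensing enzyme (Oas1a), the antiviral enzyme viperin (Rsad2), a ubiquitin-like protein (Isg15) and an inhibitor of viral translation (Ifit1).
Oas1a (chr5:120907526-120907635, minus strand): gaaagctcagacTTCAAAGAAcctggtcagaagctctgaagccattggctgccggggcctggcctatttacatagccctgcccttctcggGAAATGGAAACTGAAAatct
Rsad2 (chr12:26456551-26456584, minus strand): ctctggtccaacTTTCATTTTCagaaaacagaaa
Isg15 (chr4:156200863-156200908, minus strand): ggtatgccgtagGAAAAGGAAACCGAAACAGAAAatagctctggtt
Ifit1 (chr19:34640773-34640825, plus strand): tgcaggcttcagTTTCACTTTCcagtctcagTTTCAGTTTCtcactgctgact

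Of the interferon-gamma GTPases with a window, Irgm1, Igtp, Irgm2 and Tgtp1 of the immunity-related GTPases and Gbp7 of the guanylate-binding proteins are shown, and Irf1 is given for the GAS without an ISRE.
Irgm1 (chr11:48871423-48871462, minus strand): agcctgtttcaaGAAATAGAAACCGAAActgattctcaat
Igtp (chr11:58199499-58199543, plus strand): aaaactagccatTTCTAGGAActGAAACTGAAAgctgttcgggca
Irgm2 (chr11:58214890-58214934, plus strand): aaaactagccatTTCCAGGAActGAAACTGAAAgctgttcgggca
Tgtp1 (chr11:48992302-48992346, minus strand): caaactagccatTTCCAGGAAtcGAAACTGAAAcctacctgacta
Gbp7 (chr3:142530218-142530304, plus strand): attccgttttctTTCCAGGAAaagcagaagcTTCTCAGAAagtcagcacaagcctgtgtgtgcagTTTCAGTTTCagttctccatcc
Irf1 (chr11:53769912-53769944, plus strand): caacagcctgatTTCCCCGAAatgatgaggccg

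In Igtp, Irgm2 and Tgtp1 a GAS lies next to an ISRE in stretches that resemble each other. Over the 45 bases printed, Igtp and Irgm2 were identical at 44, and Tgtp1 was identical to Igtp at 33 and to Irgm2 at 34. Windows of 300 bases, from 250 before to 50 after the start, were on hand for 27 of the members, with 31 windows in all. The ISRE core occurred in 18 of these 31 windows (58.1%), compared with 3.44% of all 32851 windows of the genome, and the GAS core occurred in 9 (29.0%), compared with 8.30%. By gene, the ISRE core was found in 10 of 18 type I targets and 8 of 8 GTPases, and the GAS core in 3 of 18 and 5 of 8. The match describes the letters of these windows only. No window was on hand for Usp18, Mx1, Mx2, Oas2, Rtp4, Parp14, Ifi27l2a, Zbp1, Dhx58, Gbp4, Gbp6 or Iigp1.

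The levels are given as rescaled FPKM, that is, fragments relative to transcript length and to the mapped fragments of the library, multiplied by 1 factor per library so that all libraries have the same 75th percentile over coding genes. The factors were 0.719 to 0.738 in Saline, 1.35 to 1.68 in OVA and 0.849 to 1.06 in Herb, and coding genes held 18.6% to 21.4% of the summed FPKM in Saline, 3.4% to 4.72% in OVA and 8.49% to 13.7% in Herb. The choice of scaling therefore bears on every direction below, and results on the values as deposited are given beside many of the main ones. Unless stated otherwise, a call is one made after rescaling. The estimated depth was 14900000 to 21400000 mapped fragments in Saline, 20300000 to 29400000 in OVA and 14700000 to 21300000 in Herb. Differences were tested with limma on log2(rescaled FPKM + 1) over the 11174 symbols with a mean of at least 1, and a gene was called at a Benjamini-Hochberg adjusted p under 0.05. A fold change on this scale understates that of low genes.

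The interferon-stimulated genes were low to moderate in lung. Of the 39 members, 33 passed the filter on low values, with means over all libraries from 1.06 (Mx2) to 11.3 rescaled FPKM (Irf1). Oas2, Oasl1, Oasl2, Xaf1, Irgm2 and Stat2 did not pass it. Stat2, a subunit of the type I transcription complex, was listed at 0 in all 10 libraries. Gapdh, a gene used by every cell, was likewise listed at 0 in 9 of them, so an exact 0 may be a failed estimate. For the 37 members with a known transcript length, the estimated fragments behind a value ranged up to 1947 (Parp14), with 42 to 170 for Oas1a, 48 to 510 for Rsad2 and 18 to 298 for Irgm1.

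**Figure D1:**
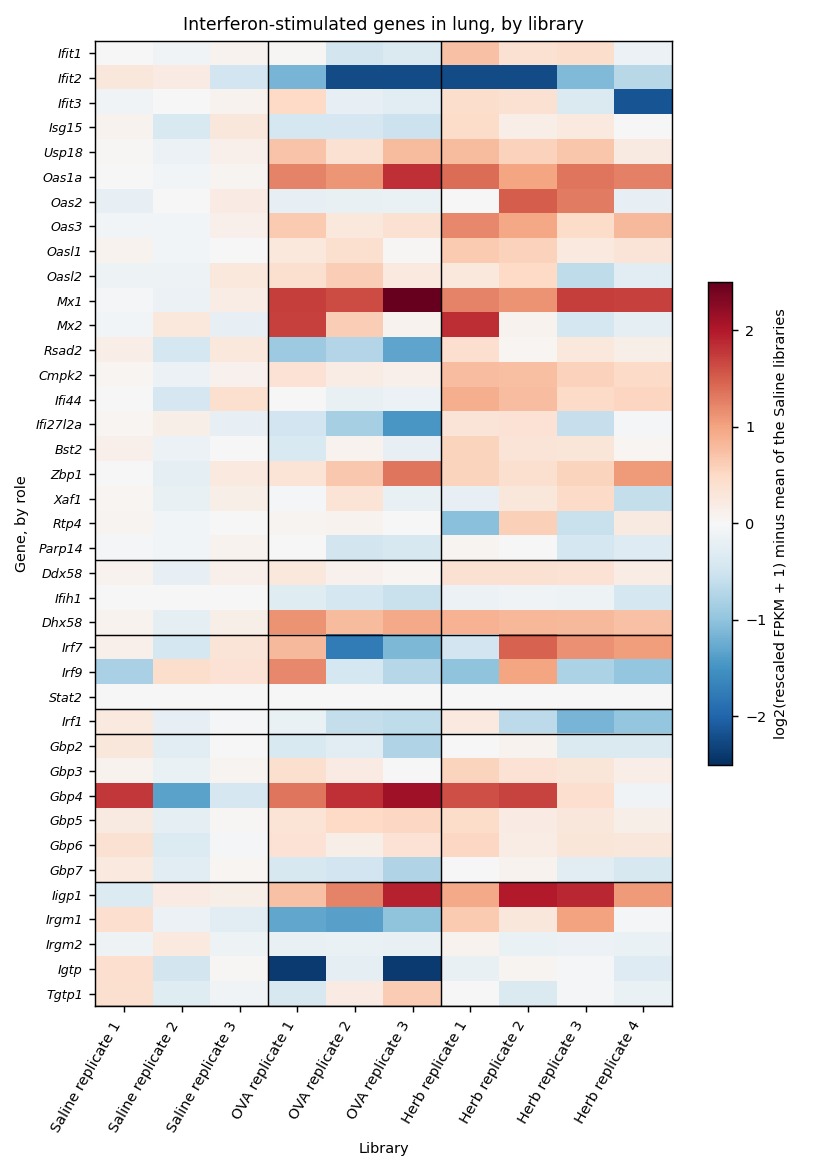
Each row is 1 of the 39 members, ordered by role (type I effectors, RNA sensors, type I transcription factors, Irf1, guanylate-binding proteins, immunity-related GTPases; black lines), and each column is 1 library. Colour gives log2(rescaled FPKM + 1) minus the mean of the 3 Saline libraries, red for higher and blue for lower; Oas1a, Mx1 and Dhx58 are red in all OVA and Herb libraries, whereas Irgm1 and Rsad2 are blue in all OVA libraries.

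OVA vs. Saline addresses the change in the asthma model, and members were called in both directions. Usp18, Oas1a, Mx1, Zbp1, Dhx58, Gbp5 and Iigp1 were upregulated in OVA, and Ifit2, Rsad2, Ifi27l2a, Ifih1, Gbp7, Irgm1 and Igtp were downregulated. These are 7 members higher and 7 lower of 33 tested, or 42.4% called, near the background of all genes tested, of which 21.0% were called higher and 21.1% lower. The median log2 fold change of all 39 members was 0.01, compared with 0.02 for all symbols above 0 in a library. On the values as deposited, 2 members were higher and 17 lower of 32, where 3.28% of all genes were higher and 57.9% were lower and the median of all genes tested was -0.75.

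Among the type I effectors, Oas1a, Mx1, Usp18 and Zbp1 were upregulated in OVA vs. Saline. Oas1a, which makes the 2-5A messenger that activates an RNA-degrading enzyme in response to double-stranded RNA, was at 1.1, 0.988 and 1.19 rescaled FPKM in Saline, 3.96, 3.49 and 6.42 in OVA and 4.54, 3.17, 4.27 and 3.97 in Herb. Every OVA and Herb library lay above every Saline library, while OVA and Herb overlapped. The log2 fold change was 1.39 ± 0.19 (SE) in OVA vs. Saline (limma, adjusted p = 0.00123) and 1.25 ± 0.18 in Herb vs. Saline (adjusted p = 0.0116), and -0.15 ± 0.18 in Herb vs. OVA (adjusted p = 0.629). On the values as deposited Oas1a was also higher in OVA (log2 fold change 0.69, adjusted p = 0.00944). Oas1a lies on chromosome 5, and its paralogs Oas1b and Oas1g, which are not members, were higher in OVA as well (limma log2 fold change 1.44, adjusted p = 0.00109, and 1.37, adjusted p = 0.000818). Reads of such similar genes can be split between them, which makes the division among the 3 uncertain.

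Oas3, a larger enzyme of the same family within 177.2 kb of Oas1a and Oas2, was at 0.472, 0.466 and 0.694 rescaled FPKM in Saline, 1.43, 0.852 and 1.01 in OVA and 2.52, 2.01, 1.13 and 1.72 in Herb. Its Saline libraries lay below all others. Oas3 was upregulated in Herb vs. Saline by a log2 fold change of 0.86 ± 0.18 (limma, adjusted p = 0.0214), and its difference in OVA vs. Saline missed the threshold (0.43 ± 0.20, adjusted p = 0.103). The Herb vs. Saline call was lost without any of Saline replicates 1 to 3 or Herb replicate 4. Oas2 was between 0 and 2.27, with the highest values in Herb replicates 2 and 3, and the antiviral relatives Oasl1 and Oasl2 stayed at or below 1.59 in all libraries.

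Mx1 encodes a dynamin-like GTPase that blocks influenza and related viruses, and its allele in most inbred laboratory strains makes no functional protein. It was at 0.154, 0.074 and 0.337 rescaled FPKM in Saline, 2.91, 2.68 and 6.38 in OVA and 1.80, 1.60, 2.90 and 2.89 in Herb. The Saline libraries lay far below all others, and the log2 fold change was 2.0 ± 0.28 in OVA vs. Saline (limma, adjusted p = 0.00135) and 1.45 ± 0.26 in Herb vs. Saline (adjusted p = 0.0158). Mx1 was the member with the largest positive fold change of OVA vs. Saline, and it was higher as deposited too (1.5, adjusted p = 0.00106). Its relative Mx2 was scattered, from 0 to 3.88, with no call.

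Usp18, the protease that removes ISG15 and dampens type I receptor signalling, was at 2.73, 2.33 and 2.997 rescaled FPKM in Saline, 5.04, 3.79 and 5.39 in OVA and 5.32, 4.5, 4.92 and 3.31 in Herb. Both ovalbumin groups lay above Saline, with a log2 fold change of 0.63 ± 0.17 in OVA (limma, adjusted p = 0.0161), although on the values as deposited it turned to -0.17 (adjusted p = 0.437) and without Saline replicate 2 the call was lost (adjusted p = 0.0576). In Herb vs. Saline the log2 fold change was 0.57 ± 0.16 (adjusted p = 0.0439), a call made in 9 of 20 alternatives. It was lost as deposited (0.30, adjusted p = 0.205), under 4 other settings, and without any of Saline replicates 1 to 3 or Herb replicates 1 to 3. Zbp1, a sensor of Z-form nucleic acids that triggers cell death, was at 1.09, 0.792 and 1.5 in Saline, 1.69, 2.35 and 4.29 in OVA and 2.11, 1.78, 2.08 and 3.42 in Herb. It was upregulated in OVA vs. Saline (0.78 ± 0.27, adjusted p = 0.0424), a call that was lost on leaving out any of Saline replicates 1 to 3, OVA replicates 2 or 3, or Herb replicates 1 to 3, with adjusted p up to 0.650 over all alternatives.

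A second set of type I effectors went down in OVA. Rsad2, or viperin, which makes a chain-terminating nucleotide, was at 4.39, 2.53 and 4.73 rescaled FPKM in Saline, 1.56, 1.87 and 0.909 in OVA and 5.43, 3.93, 4.76 and 4.27 in Herb. All OVA libraries lay below all others, and Saline and Herb overlapped. Rsad2 was downregulated in OVA vs. Saline by -0.99 ± 0.22 (limma log2 fold change, adjusted p = 0.00708) and upregulated in Herb vs. OVA by 1.21 ± 0.20 (adjusted p = 0.0402). The Herb vs. OVA call was lost on leaving out Saline replicate 1 or 3, OVA replicate 1 or 3, or any Herb replicate, with adjusted p from 0.0581 to 0.130. These 2 comparisons share the OVA libraries.

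Cmpk2, a mitochondrial nucleotide kinase, is the neighbour of Rsad2 on chromosome 12, with the gene bodies 12.7 kb apart. It was at 2.11, 1.72 and 2.25 rescaled FPKM in Saline, 2.87, 2.41 and 2.31 in OVA and 4.15, 4.05, 3.49 and 3.22 in Herb. Here Saline was lowest and Herb highest, with no overlap between any of the 3 groups. The log2 fold change was 0.64 ± 0.11 in Herb vs. Saline (limma, adjusted p = 0.0154), 0.22 ± 0.12 in OVA vs. Saline (adjusted p = 0.164) and 0.42 ± 0.11 in Herb vs. OVA (adjusted p = 0.0751), and in OVA vs. Saline it was -0.48 on the values as deposited (adjusted p = 0.0191). The ratio of Rsad2 to Cmpk2 within a library, which 1 factor per library cannot alter, was 2.08, 1.48 and 2.1 in Saline, 0.543, 0.776 and 0.394 in OVA and 1.31, 0.973, 1.36 and 1.32 in Herb. The 3 groups did not overlap in it. This ratio was chosen after the values were seen and is a description.

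Ifit2, one of a family of proteins that bind foreign RNA ends, was at 4.74, 4.42 and 2.41 rescaled FPKM in Saline, 1.12, 0 and 0 in OVA and 0, 0, 1.19 and 1.93 in Herb. It was downregulated in OVA vs. Saline (limma log2 fold change -1.88 ± 0.49, adjusted p = 0.0142) and in Herb vs. Saline (-1.57 ± 0.45, adjusted p = 0.0498). It was listed at 0 in 4 libraries. With zeros treated as missing neither call was made (adjusted p = 0.0556 and 0.0984). The Herb vs. Saline call was also lost without any of Saline replicates 1 to 3, OVA replicates 2 or 3, or Herb replicates 1 to 3. Its neighbours in the Ifit cluster on chromosome 19 were not called: Ifit1 ranged from 1.63 to 5.02, and Ifit3, whose reads can be shared with its copy Ifit3b, from 0 to 5.29. Ifi27l2a, a small mitochondrial membrane protein gene, was at 9.76, 10.4 and 8.04 in Saline, 6.49, 4.85 and 2.78 in OVA and 12.003, 12.4, 5.97 and 9.08 in Herb. Its OVA libraries lay below Saline (-0.92 ± 0.30, adjusted p = 0.0371), and of the Herb libraries replicate 3 fell within the OVA range. The call was lost without any of Saline replicates 1 to 3, OVA replicate 2 or 3, or Herb replicate 4.

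The other abundant type I effectors gave no call in OVA vs. Saline after rescaling. Bst2, or tetherin, which holds budding viruses at the cell surface, was at 10.3, 8.36 and 9.43 rescaled FPKM in Saline, 6.92, 10.004 and 8.01 in OVA and 14.2, 11.9, 11.8 and 9.72 in Herb, with overlap between OVA and each other group. Parp14, an ADP-ribosyltransferase, was at 8.35, 8.09 and 9.20 in Saline, 8.48, 5.98 and 6.19 in OVA and 8.93, 8.48, 6.07 and 6.67 in Herb. Neither was called in any of the 3 comparisons. Ifi44, an antiviral protein gene of chromosome 3, was at 1.48, 0.853 and 2.25 in Saline, 1.45, 1.16 and 1.22 in OVA and 3.63, 3.23, 2.43 and 2.60 in Herb. Its Herb libraries lay above all others, and it was called in Herb vs. Saline (limma log2 fold change 0.68 ± 0.19, adjusted p = 0.0462) but not in Herb vs. OVA (0.79 ± 0.19, adjusted p = 0.0724). The Herb vs. Saline call was lost without any single library other than Saline replicate 3. Isg15, the ubiquitin-like modifier, was at 1.85 to 3.52 in Saline, 1.54 to 1.76 in OVA and 2.68 to 4.11 in Herb. OVA lay below both other groups in it without a call (adjusted p = 0.0637 in OVA vs. Saline and 0.0724 in Herb vs. OVA). As deposited Isg15 was called lower in OVA vs. Saline (limma log2 fold change -1.14, adjusted p = 0.00111) and higher in Herb vs. OVA (1.08, adjusted p = 0.00716). The OVA vs. Saline difference of Isg15 was called in 3 of the 4 other scalings. The transport chaperone gene Rtp4 ranged from 0.990 to 5.26, and Xaf1, which promotes apoptosis, from 0.0704 to 1.25.

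**Figure D2:**
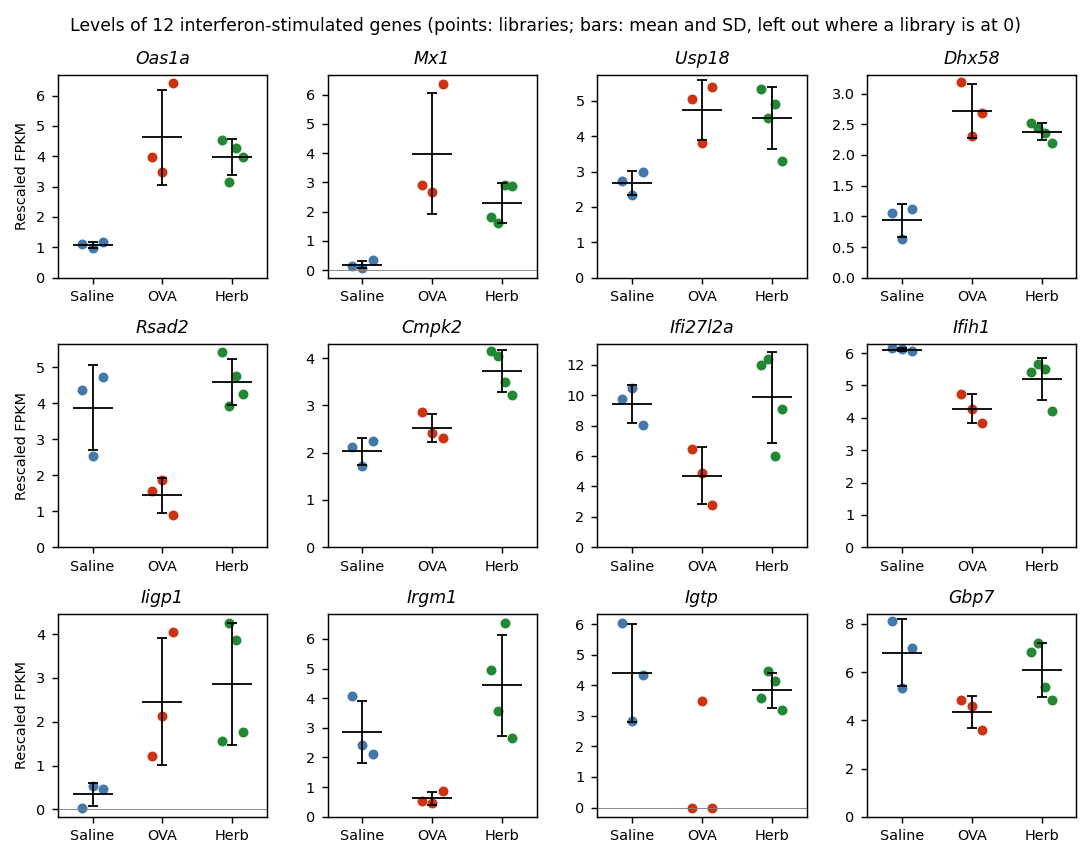
Rescaled FPKM (vertical axes, linear, each with its own range) of 12 members in the Saline, OVA and Herb libraries; each point is 1 library and bars give mean and SD, left out where a library of the group is at 0. Oas1a, Mx1, Usp18, Dhx58 and Iigp1 are lowest in Saline, Rsad2 and Irgm1 are lowest in OVA, and Cmpk2 is highest in Herb.

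The 3 cytosolic RNA sensors diverged from each other. Ddx58, or RIG-I, which recognises viral RNA ends, was the highest at 6.64, 5.18 and 6.77 rescaled FPKM in Saline, 7.58, 6.71 and 6.42 in OVA and 8.34, 8.31, 8.20 and 7.14 in Herb, and it was not called. Ifih1, or MDA5, which recognises long double-stranded RNA, was at 6.16, 6.11 and 6.05 in Saline, 4.75, 4.27 and 3.83 in OVA and 5.40, 5.68, 5.5 and 4.22 in Herb. Its Saline libraries lay above all others, and it was downregulated in OVA vs. Saline (limma log2 fold change -0.43 ± 0.12, adjusted p = 0.0174). Dhx58, or LGP2, which regulates the other two sensors and does not signal by itself, was at 1.05, 0.627 and 1.13 in Saline, 3.18, 2.30 and 2.68 in OVA and 2.52, 2.43, 2.35 and 2.20 in Herb. It was upregulated in OVA vs. Saline (0.95 ± 0.13, adjusted p = 0.00137) and in Herb vs. Saline (0.81 ± 0.13, adjusted p = 0.0125). As deposited the Dhx58 difference in OVA vs. Saline was 0.32, with no call (adjusted p = 0.0892). Under a scaling to a common summed FPKM over coding genes, the Ifih1 fold change in OVA vs. Saline shrank to -0.0036.

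The transcription factors gave no call. Irf7, the amplifier of interferon-alpha production, was at 2.69, 1.49 and 3.20 rescaled FPKM in Saline, 4.90, 0 and 0.562 in OVA and 1.41, 8.35, 6.43 and 6.002 in Herb. OVA and Herb libraries overlapped, and the spread within OVA covered most of the range. Irf9, the DNA-binding subunit of the type I complex, was at 0.559, 2.68 and 2.5 in Saline, 5.24, 1.01 and 0.651 in OVA and 0.358, 4.39, 0.569 and 0.394 in Herb, with no order among the groups. Irf1, a factor induced by both interferon types, was the most abundant member at 17.3, 12.4 and 14.0 in Saline, 12.8, 9.23 and 8.95 in OVA and 17.3, 8.82, 5.88 and 6.89 in Herb. Its log2 fold change was -0.46 ± 0.33 in OVA vs. Saline (limma, adjusted p = 0.294) and -0.63 ± 0.31 in Herb vs. Saline (adjusted p = 0.196), and on the values as deposited it was lower in OVA (-1.40, adjusted p = 0.00765).

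Of the 10 interferon-gamma GTPases tested in OVA vs. Saline, Gbp5 and Iigp1 were upregulated, Gbp7, Irgm1 and Igtp were downregulated, and 5 were not called, a share near the 21.0% higher and 21.1% lower of all genes. As deposited 0 were higher and 5 lower. The guanylate-binding proteins coat the membranes around intracellular microbes. Gbp7 had the highest mean over the 10 libraries, although Gbp4 was higher in every OVA library. Gbp7 was at 8.11, 5.35 and 6.98 rescaled FPKM in Saline, 4.86, 4.58 and 3.60 in OVA and 6.83, 7.19, 5.39 and 4.86 in Herb. OVA lay below Saline (limma log2 fold change -0.54 ± 0.18, adjusted p = 0.0405) and touched the lowest Herb library, whose value was higher beyond the digits shown. Gbp5, which also promotes inflammasome activity, was at 1.37, 0.709 and 1.06 in Saline, 1.56, 1.86 and 1.91 in OVA and 1.77, 1.35, 1.46 and 1.26 in Herb. It was higher in OVA vs. Saline (0.45 ± 0.15, adjusted p = 0.0357), with the direction turned as deposited (-0.13, adjusted p = 0.540). The Gbp5 call was lost without Saline replicate 2 or 3, OVA replicate 2 or 3, or Herb replicate 3, and the Gbp7 call without Saline replicate 1 or 3, any OVA replicate, or Herb replicate 1 or 3.

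Gbp5 and Gbp7 lie with Gbp3 and Gbp2 within 141.1 kb of chromosome 3, so neighbours of 1 cluster were called in opposite directions. Gbp2 was at 7.81, 4.96 and 6.30 rescaled FPKM in Saline, 4.56, 5.04 and 3.31 in OVA and 6.29, 6.73, 4.67 and 4.69 in Herb. Gbp3 was at 3.55, 2.79 and 3.45 in Saline, 4.62, 3.87 and 3.21 in OVA and 5.25, 4.48, 4.26 and 3.77 in Herb. Neither was called. In the other cluster, on chromosome 5, Gbp4 was at 7.57, 0.0056 and 0.886 in Saline, 5.40, 7.93 and 10.1 in OVA and 6.69, 7.20, 2.37 and 1.37 in Herb, a spread that left a log2 fold change of 1.76 ± 0.76 in OVA vs. Saline uncalled (limma, adjusted p = 0.0931). Gbp6 stayed between 0.781 and 2.23. Reads of these closely related genes can be shared, and the division among them is uncertain.

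The immunity-related GTPases act on the vacuoles of bacteria and parasites, and comprise effectors such as Iigp1 and Tgtp1 and the regulators Irgm1, Irgm2 and Igtp (Irgm3), which keep the effectors off the membranes of the cell itself. Irgm1 was at 4.07, 2.41 and 2.11 rescaled FPKM in Saline, 0.526, 0.469 and 0.876 in OVA and 4.96, 3.58, 6.55 and 2.65 in Herb. Every OVA library lay below every other library, and Saline and Herb overlapped. Irgm1 was downregulated in OVA vs. Saline (limma log2 fold change -1.23 ± 0.28, adjusted p = 0.00846) and upregulated in Herb vs. OVA (1.70 ± 0.26, adjusted p = 0.0339). The Herb vs. OVA call was lost on leaving out Saline replicate 2 or 3, OVA replicate 1 or 3, or Herb replicate 1 or 2, with adjusted p from 0.0556 to 0.120.

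Igtp was at 6.04, 2.83 and 4.35 rescaled FPKM in Saline, 0, 3.48 and 0 in OVA and 3.58, 4.47, 4.13 and 3.18 in Herb. It was called lower in OVA vs. Saline (limma log2 fold change -1.67 ± 0.52, adjusted p = 0.0314), but OVA replicate 2 fell among the Saline libraries and the call was not made with zeros treated as missing (adjusted p = 0.606) or without Saline replicate 1 or 3 or OVA replicate 1 or 3. Irgm2, whose printed window matches that of Igtp at all but 1 base, was at most 0.359. Iigp1 went the other way, at 0.0436, 0.527 and 0.456 in Saline, 1.21, 2.13 and 4.04 in OVA and 1.57, 4.26, 3.86 and 1.78 in Herb. It was higher than Saline in every library of both other groups, with a log2 fold change of 1.3 ± 0.37 in OVA (adjusted p = 0.0215) and 1.47 ± 0.35 in Herb (adjusted p = 0.0279), and with an estimated 3 fragments behind its lowest value. The OVA vs. Saline call of Iigp1 was lost without Saline replicate 1 or OVA replicate 3 and as deposited (0.83, adjusted p = 0.0852). Its Herb vs. Saline call was lost without any of Saline replicates 1 to 3 or Herb replicate 3 and under quantile normalization. Tgtp1, whose reads can be shared with its copy Tgtp2, was at 3.72, 1.89 and 2.36 in Saline, 1.72, 3.15 and 4.54 in OVA and 2.60, 1.77, 2.45 and 2.20 in Herb, and was not called.

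**Figure D3:**
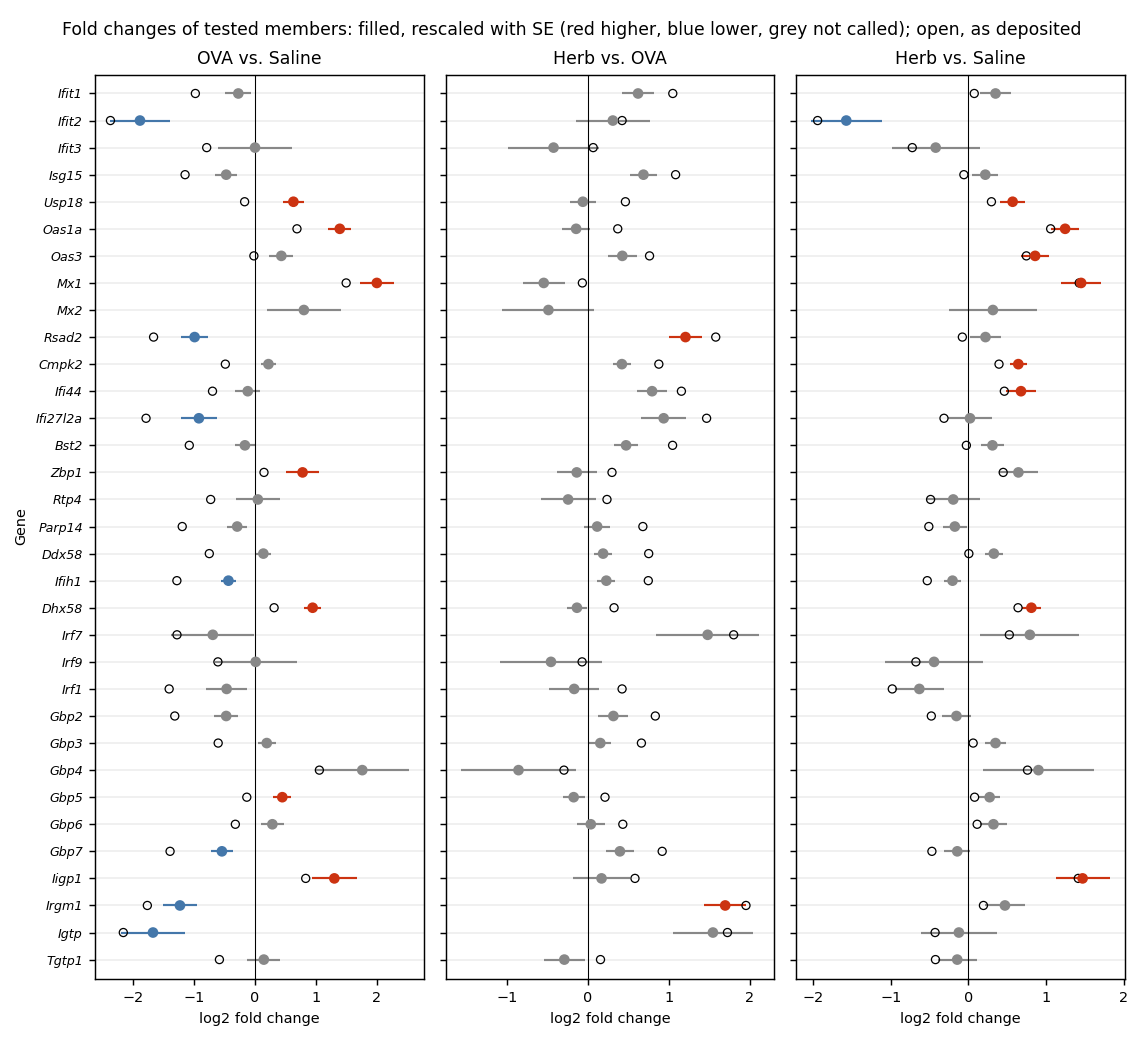
Log2 fold changes (horizontal axes) of the 33 tested members in the 3 comparisons; filled points with bars give the limma estimate and its SE after rescaling, red where called higher, blue where called lower and grey where not called, and open circles give the estimate on the values as deposited. In OVA vs. Saline the open circles lie to the left of the filled points, and 7 members are called in each direction after rescaling.

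Herb vs. OVA addresses the change under the extract. Rsad2 and Irgm1 were upregulated and no member was downregulated (limma), or 6.06% of 33 tested, compared with 0.322% of all genes called higher and 0.394% called lower. Rsad2 and Irgm1 were also called in this comparison under each of the 4 other scalings. No member was called by limma without the filter on low values, with the 2 groups only, with a replicate block, or without Saline replicate 3, OVA replicate 1 or 3, or Herb replicate 1 or 2. The share of all genes called under these settings is not given. On the values as deposited 18 of 32 members were higher and 0 were lower, where 44.0% of all genes were higher and 0.446% were lower. Over all genes tested the median was then 0.48. Of the 39 members, 6 had Herb libraries that all lay above all OVA libraries and 0 the reverse. That is 15.4% without overlap, all in 1 direction. Of the 20819 symbols above 0 in a library, 15.9% did not overlap in either direction. Of these symbols, 1562 had all Herb libraries above all OVA libraries and 1748 had the reverse.

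Herb vs. Saline compares the treated ovalbumin mice with the controls. Usp18, Oas1a, Oas3, Mx1, Cmpk2, Ifi44, Dhx58 and Iigp1 were upregulated and Ifit2 was downregulated (limma), which is 8 higher and 1 lower, or 27.3% of 33 tested. In the background 7.53% of all genes were called higher and 7.06% lower. Without Saline replicate 2 none of the 9 was called by limma, at adjusted p from 0.0519 to 0.157. Without Saline replicate 1, Saline replicate 3 or Herb replicate 3 there were 4, 5 and 5 calls. The adjusted p depends on all genes tested, and no share of all genes is given for fits without a library. Whether these losses are particular to the members was not tested. On the values as deposited 5 members were higher (Oas1a, Oas3, Mx1, Dhx58 and Iigp1) and 2 lower (Ifih1 and Ifit2), where 3.32% of all genes were higher and 22.7% lower. The median log2 fold change of the 39 members was 0.31, and it was 0.02 for all symbols above 0 in a library.

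The Herb means can be set beside the 7 members called higher and the 7 called lower in OVA vs. Saline, as a description. These members were picked for OVA levels that differ from Saline, so a Herb mean between them is likely through this choice alone. No such share is given for all genes, and in Herb vs. OVA only Rsad2 and Irgm1 were called. For 6 of the 7 higher members the Herb mean on the log2 scale lay between those of Saline and OVA, and for Iigp1 it lay above OVA. Of the 7 lower members, Ifit2, Ifih1, Gbp7 and Igtp had a Herb mean between the other groups, and Rsad2, Ifi27l2a and Irgm1 had one above Saline. Usp18, Oas1a, Mx1, Dhx58 and Iigp1 were called higher than Saline in both ovalbumin groups, which share the Saline libraries.

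Type I targets and interferon-gamma GTPases were compared as arms. In OVA vs. Saline, 5 type I targets were higher and 4 lower of 22 tested, and 2 GTPases were higher and 3 lower of 10 tested (limma), near the 21.0% higher and 21.1% lower of all genes. As deposited, 2 type I targets were higher and 11 lower of 21, and 0 GTPases were higher and 5 lower of 10, where 3.28% of all genes were higher and 57.9% lower. The median log2 fold change over every listed gene was 0.01 for the 27 type I targets and 0.15 for the 11 GTPases. In Herb vs. OVA the medians were 0.19 and 0.15, and in Herb vs. Saline 0.32 and 0.27. In Herb vs. Saline 7 type I targets were higher and 1 lower of 22 tested, and 1 GTPase was higher of 10 tested (limma). There 7.53% of all genes were called higher and 7.06% lower. None of these member calls was made without Saline replicate 2, a fit for which no share of all genes is given. In OVA vs. Saline the calls went in both directions within each arm. No test of the arms against each other was made.

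The summed level of the type I targets was 69.8 to 80.5 rescaled FPKM in Saline, 67.8 to 88.4 in OVA and 82.8 to 109 in Herb, and that of the GTPases was 22.6 to 44.2, 26.3 to 34.03 and 27.5 to 42.6. The ratio of the 2 sums within a library, which 1 factor per library cannot alter, was 1.76, 3.08 and 2.76 in Saline, 3.36, 1.99 and 2.1 in OVA and 2.48, 2.56, 2.41 and 3.01 in Herb. The groups overlapped fully, and the ratio was not tested. In contrast, the ratio of 2 single type I targets, Oas1a to Rsad2, was 0.251, 0.390 and 0.251 in Saline, 2.54, 1.86 and 7.06 in OVA and 0.836, 0.805, 0.899 and 0.932 in Herb. In this ratio, chosen after the values were seen, the 3 groups did not overlap.

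**Figure D4:**
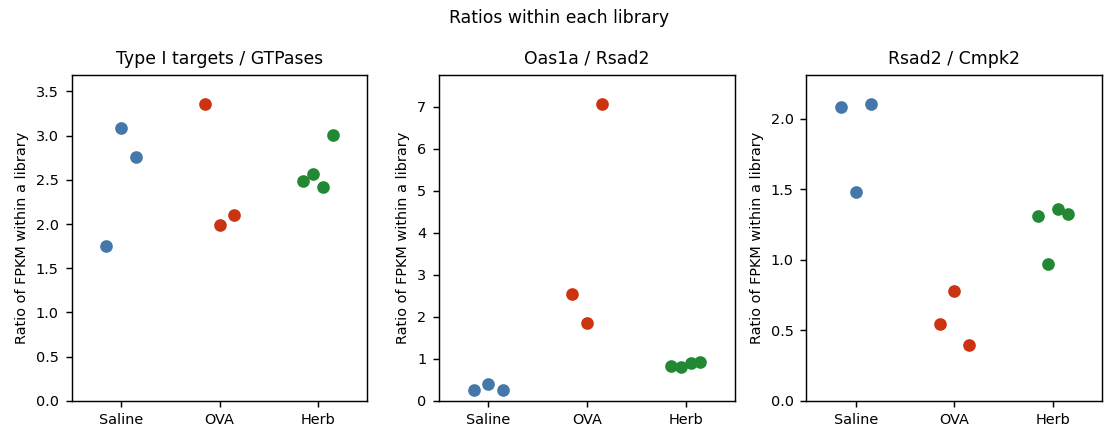
Ratios of FPKM within each library (vertical axes, linear from 0), one point per library, for summed type I targets over summed GTPases, Oas1a over Rsad2, and Rsad2 over Cmpk2. The groups overlap between 1.76 and 3.36 in the first panel and do not overlap in the other panels, which show pairs chosen after the values were seen.

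Libraries of the OVA group did not carry the pattern equally. OVA replicate 3 was the highest of the OVA libraries for 6 of the 7 members called higher and alone the lowest for 4 of the 7 called lower. These members were picked for their OVA levels, and no such share is given for all genes called. Whether this order is particular to the members was not tested. Without OVA replicate 3, 8 members were called in OVA vs. Saline in place of 14, 4 in each direction, and without Saline replicate 3 there were 9. Without OVA replicate 3 the median log2 fold change was -0.09 for the GTPases and 0.14 for the type I targets. Oas1a, Mx1 and Irgm1 were called in the same direction in OVA vs. Saline under all 20 alternatives run, and Ifit2, Rsad2, Ifih1 and Dhx58 were called in it without any single library as well.

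The interferons themselves were at or near 0. Of 14 ligand genes listed, 6 were above 0 in a library and none passed the filter. Ifnb1, the first interferon made after RNA sensing, was listed at 0 in all libraries, and Ifng was listed at 0.122 rescaled FPKM in Saline replicate 1, 0.0614 in Herb replicate 1, 0.0971 in Herb replicate 3 and 0 in the others. A difference was not detectable at these levels. The receptors were all tested. Ifngr1, the ligand-binding chain for interferon-gamma, was at 32.2, 34.1 and 28.1 in Saline, 8.96, 17.4 and 3.63 in OVA and 22.2, 18.9, 11.7 and 17.0 in Herb, and was the 1 receptor called, lower in OVA vs. Saline (limma log2 fold change -1.77 ± 0.43, adjusted p = 0.0114). Every Saline library lay above every other library. Ifnar1 was at 2.62 to 4.98 over all libraries, Ifnar2 at 9.64 to 14.0, Ifngr2 at 5.51 to 11.6, the interferon-lambda chain Ifnlr1 at 0 to 2.82 and its partner Il10rb at 0 to 9.02. The 5 receptor genes other than Ifngr1 were not called after rescaling. Of all genes 21.0% were then called higher and 21.1% lower in OVA vs. Saline. As deposited 5 of the 6 receptors were lower in OVA vs. Saline, where 57.9% of all genes were lower. In Herb vs. OVA 5 were higher as deposited, where 44.0% of all genes were higher.

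Of 8 receptor signalling genes tested, 2 were higher and 1 lower in OVA vs. Saline and none was called in the other comparisons (limma, adjusted p under 0.05). In OVA vs. Saline 21.0% of all genes were called higher and 21.1% lower. As deposited 0 of the 8 were higher and 5 lower in it, where 3.28% of all genes were higher and 57.9% lower. Socs3, an inhibitor of cytokine receptors, was higher (limma log2 fold change 1.04, adjusted p = 0.00481), Tyk2 was higher (0.54, adjusted p = 0.0419) and Jak1, which serves both interferon receptors, was lower (-0.81, adjusted p = 0.00781). Socs1, the feedback inhibitor of interferon-gamma signalling, was above 0 in Saline replicate 1 at 0.214 and in OVA replicates 2 and 3 at 1.25 and 0.359.

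Of 10 genes of interferon induction tested, 3 were higher and 1 lower in OVA vs. Saline, or 40.0% called, near the share of all genes, and as deposited 0 were higher and 4 lower. Irf3, which starts interferon-beta transcription, was higher (limma log2 fold change 1.00, adjusted p = 0.00734), as was the adaptor Ticam1 (0.55, adjusted p = 0.0279), whereas Tlr3, the endosomal double-stranded RNA receptor upstream of Ticam1, was lower (-0.87, adjusted p = 0.00202). Of 16 further interferon-gamma targets tested in OVA vs. Saline, 2 were higher and 2 lower, or 25.0% called. Of all genes 21.0% were called higher and 21.1% lower. As deposited 1 of the 16 was higher and 10 were lower, where 3.28% of all genes were higher and 57.9% lower. Ciita, the master regulator of MHC class II, rose by 1.75 (adjusted p = 0.00475) and Irf8 by 1.15 (adjusted p = 0.00935), and Psme1, a proteasome activator subunit, fell by 0.77 (adjusted p = 0.00344). Cxcl9 was between 0 and 0.281 rescaled FPKM and Cxcl10 between 0 and 0.419 over all libraries, both chemokines that interferon-gamma strongly induces. Cxcl10 was at 0, 0 and 0.0515 in OVA and 0.386, 0.265, 0.143 and 0.419 in Herb, too low to be tested. The OVA and Herb libraries also lay apart in 15.9% of the 20819 symbols above 0 in a library.

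Of 35 further type I targets tested in OVA vs. Saline, 7 were higher and 5 lower, or 34.3% called, where 21.0% of all genes were called higher and 21.1% lower. The largest called changes were in Slfn4, of the Schlafen family (limma log2 fold change 2.24, adjusted p = 0.0181), Ifitm2, which blocks viral fusion (-1.54, adjusted p = 0.00137), and Slfn5 (-1.51, adjusted p = 0.00157). On the values as deposited 3 of the 35 were higher and 18 lower, and Socs3, Tyk2, Irf3, Ticam1 and Irf8 were not called higher, with Tyk2 at -0.05 and Ticam1 at -0.14. In Herb vs. OVA 0 of the 35 were called by limma. In Herb vs. Saline 4 were higher and 3 lower, where 7.53% of all genes were called higher and 7.06% lower.

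Markers of some lung cell types differed between OVA and Saline, and no listed marker was called in Herb vs. OVA (limma). Of all genes 21.0% were called higher and 21.1% lower in OVA vs. Saline, and 0.322% and 0.394% in Herb vs. OVA. As deposited the markers called in Herb vs. OVA were all higher, among them Sftpc, Cdh5, Gzma and S100a8. On that scale 44.0% of all genes were higher. Summed over 5 listed genes, alveolar type 2 cell markers were at 2194 to 2937 rescaled FPKM in Saline, 513 to 902 in OVA and 922 to 1464 in Herb, with 4 of 5 called lower in OVA vs. Saline. Endothelial markers were at 240 to 290.0, 81.5 to 136 and 123 to 222, with 3 of 5 called lower. Alveolar macrophage markers were at 65.7 to 150.1, 135 to 375 and 290.0 to 660.2, with 2 of 5 tested higher and 2 lower in OVA vs. Saline. That sum was carried by Chil3, with a mean of 78.5 in Saline, 223 in OVA and 451 in Herb. Chil3 and Itgax were the markers called higher, and Siglecf and Ear2 those called lower. Fabp4 had a lower mean in OVA than in Saline, and Marco a higher one. Ciliated cell markers were at 6.55 to 18.7, 26.0 to 64.0 and 17.9 to 32.0. Among cells known for strong interferon production, plasmacytoid dendritic cell markers were at 6.32 to 12.6, 2.94 to 7.64 and 1.64 to 7.56, and NK cell markers at 9.23 to 11.5, 2.68 to 6.44 and 6.77 to 8.17. The lower plasmacytoid sum in OVA came mostly from Cox6a2, with a mean of 3.27 in Saline and 0.446 in OVA. Siglech of that list was at 0.520 and 0.466, Tcf4 and Ccr9 had lower means in OVA, and Pacsin1 and Klk1 higher ones. The lower NK cell sum came mostly from Gzma (limma log2 fold change -1.41, adjusted p = 0.00139). Ncr1, Klrb1c and Prf1 also had lower means in OVA, and Klre1 and Eomes higher ones. Monocyte and interstitial macrophage markers were at 18.6 to 26.7, 16.6 to 42.2 and 35.7 to 59.5, conventional dendritic cell markers at 3.48 to 4.33, 5.92 to 6.96 and 6.02 to 7.26, T cell markers at 5.90 to 10.3, 4.65 to 8.87 and 5.65 to 11.2, and B cell markers at 10.4 to 18.1, 7.83 to 12.1 and 5.63 to 21.3. Neutrophil markers were at 29.5 to 349.9, 15.6 to 54.6 and 40.2 to 109, eosinophil list markers at 11.5 to 22.7, 3.71 to 9.58 and 4.82 to 8.18, and cardiac muscle markers at 3.02 to 31.9, 9.40 to 13.6 and 4.92 to 16.9. The highest neutrophil sum came mostly from S100a9, at 0, 307 and 94.6 in Saline, 0, 0 and 1.37 in OVA and 0, 51.5, 0 and 0 in Herb. S100a8 was called lower in OVA vs. Saline. Cxcr2 had a lower mean in OVA than in Saline, and Csf3r and Retnlg higher ones. In the eosinophil list the sum was carried by Ear1, with a mean of 14.96 in Saline and 2.94 in OVA, and Siglecf, which alveolar macrophages also express. Epx, Prg2, Ccr3 and Il5ra of that list were each higher in every OVA library than in every Saline library, at low levels that were not tested, with Prg2 at 2.11, 2.23 and 1.26 in OVA. The same held for 4834 of the 20819 symbols above 0 in a library. Prg2 was at 0 in all Saline libraries, Csf1r of the monocyte list in all OVA and Herb libraries and Myl7 of the cardiac list in all OVA libraries, and no listed marker was at 0 in every library. The part of these cell type markers in the changes of the members was not tested.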

How the data were processed

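The authors trimmed the reads, aligned them to mm10 with HISAT2 and deposited 1 table of FPKM with a column per sample; the submitters' processing notes also name cutadapt 1.10, StringTie 1.3.3b and edgeR 3.16.5. The labels and the methods name different RNA kits, of which 1 is stranded, so whether the counting used strand is not settled and reads of overlapping or antisense genes may be included. Every column was matched to a sample by the labels, and 0 columns belonged to no sample.

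Rows were summed per symbol. Libraries were rescaled to a common 75th percentile over coding symbols, since FPKM shares out each library's fragments and carries no scaling between libraries. Because the values are not counts, limma 3.58.1 (R 4.3.3; lmFit, eBayes with trend) was fitted on log2(FPKM + 1) with all 10 libraries and 3 group means, over symbols with a mean of at least 1, two-sided, with Benjamini-Hochberg adjustment, and was tested on simulated data. Depth was estimated from the steps of the lowest values with GENCODE vM21 lengths, and covers counting error only. Python 3.11.15 with pandas 2.3.3 was used for the remaining steps.

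The members and all lists (roles, pathway genes and the 13 sets of cell type markers) were chosen with earlier results of these data known. Values in every library are given for up to 4 members of each role with the highest mean, for every called member whose groups do not overlap, and for Irf1 and Irf7; 1 further gene of this rule is not reported here; a few other values and all ratios were chosen afterwards. Of the other pathway genes, up to 3 called per list are named. Positions are those of GRCm38.p6. Nothing states whether replicate numbers mark shared cages or days: the 9 same-number pairs deviated together with r from -0.0030 to 0.0888, so they were not treated as paired.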

Additional observations from a re-analysis of the deposited data

Results flagged for a closer look

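In 4 of the 38 members above 0 in Herb, 1 Herb library stood apart from the other 3, by the gap to its neighbour relative to the range of the group. Chance flags about 1 in 20 groups. Mx2 was at 3.88 rescaled FPKM in Herb replicate 1, and the other Herb libraries were at 0.454 or below. Ddx58 was at 7.14 in Herb replicate 4, against 8.20 to 8.34 in the others. Irf9 was at 4.39 in Herb replicate 2, against 0.358 to 0.569. Irgm2 was at 0.206 in Herb replicate 1, against 0.0188 to 0.0323. None of these members was called in a comparison.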

How the results depend on the processing

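Scaling bore most on the directions. The median log2 fold change of all genes tested was -0.75 as deposited and 0.38 with a common summed coding FPKM in OVA vs. Saline, 0.48 and -0.13 in Herb vs. OVA, and -0.27 and 0.24 in Herb vs. Saline. Of all calls, 49.9% were higher in OVA vs. Saline, against 5.37% as deposited and 81.6% with the common sum; 45.0%, against 99.0% and 11.3%, in Herb vs. OVA; and 51.6%, against 12.7%, 86.9% and, with median of ratios, 36.2%, in Herb vs. Saline. Members called in OVA vs. Saline were 2 higher and 17 lower as deposited and 13 higher and 2 lower with the common sum. As deposited and with the common sum, the median of the type I targets was -0.60 and 0.34 in OVA vs. Saline, 0.46 and 0.0071 in Herb vs. OVA, and 0.0067 and 0.51 in Herb vs. Saline, and that of the GTPases -0.58 and 0.51 in OVA vs. Saline; as deposited it was 0.58 in Herb vs. OVA and 0.062 in Herb vs. Saline. Among members called on either scale, Usp18 (-0.17), Cmpk2 (-0.48), Ddx58 (-0.75), Gbp3 (-0.60) and Gbp5 (-0.13) turned as deposited in OVA vs. Saline. Usp18 (0.46) turned in Herb vs. OVA. Members called on neither scale could turn as well, such as Tgtp1 in OVA vs. Saline (0.15 rescaled, -0.58 as deposited). The 2 calls of Herb vs. OVA became 18 as deposited, 1 with a pseudocount of 0.1, and 0 without a filter on low values, with the 2 groups only and with a replicate block (in limma, where Rsad2 and Irgm1 had adjusted p = 0.0904 and 0.0861 under the block); quantile normalization left 4 of the 9 in Herb vs. Saline. With the replicate block 12 members were called in OVA vs. Saline and 6 in Herb vs. Saline; the numbers did not pair the libraries, and 2 of 9 libraries deviated most like one of their own number. Leaving out 1 library in turn gave 8 to 13 calls in OVA vs. Saline, 0 to 3 in Herb vs. OVA and 0 to 8 in Herb vs. Saline; the medians of the type I targets ranged over 0 to 0.14, 0.13 to 0.25 and 0.22 to 0.40 and those of the GTPases over -0.093 to 0.24, 0.08 to 0.21 and 0.15 to 0.39. Over single members, 1787 of 1974 alternative values kept their call or their lack of one. A call was lost in 141 and gained in 40, and 6 reversed with a call in either fit. Uncalled values that changed sign are among the 1787. The cause was not tested. Zeros as missing were tried after seeing the data, and no medians were computed for it. Low levels limit members under 1 rescaled FPKM.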
